A study of Mus musculus with 244 samples.

Results

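Among macrophages taken from regressing atherosclerotic plaque, these are the cells whose library lists Saa3, the gene of serum amyloid A3. They were chosen by that value: of 116 regression libraries, 113 had at least 1000 genes at an RPKM of 1 or more (reads scaled for transcript length and library size), and 56 of those 113 had Saa3 at an RPKM of 1 or more. The series holds 244 libraries in all. The other 57 regression cells, each listed at exactly 0 for Saa3, are the cells they are set against. All regression cells came from grafted aortic arches with atherosclerosis, taken from Apoe-/- donor mice that had been on a high-fat diet for 16 weeks; the arches were placed in wild-type (WT) mice on chow and removed after 3 days, so both classes of cells share genotype of graft and host, diet and time. A baseline group of 125 cells (128 libraries, 3 pairs of which were near copies and were averaged) came from Apoe-/- mice on the diet without a graft, and is given for orientation. Each library is 1 cell sorted as CD45+ CD11b+ F4/80+. The labels name no animal, and a graft in a WT host can hold cells of the donor and of the host. Each class is therefore treated as 1 sample: differences carry no p-value, and SDs and intervals describe spread or counting error over cells only. The words of the extraction protocol speak of islet cells, whereas the other labels speak of aortic macrophages. All 113 cells listed at least 3 of 10 macrophage markers, but these include the genes of the sorted antigens (Ptprc, Itgam and Adgre1). The sort itself therefore favours this count. Of the other markers, Lyz2 was listed in 56 cells with Saa3 and 57 without, Fcgr1 in 28 and 36, and Mertk in 11 and 13.

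Serum amyloid A proteins are acute-phase apolipoproteins that bind high-density lipoprotein and signal through formyl peptide receptors, toll-like receptors and scavenger receptors. Most family members are made by the liver, whereas Saa3 is made in mice by macrophages and adipose tissue under the control of C/EBP and NF-kB transcription factors. Major histocompatibility complex (MHC) class II molecules present peptides to CD4 T cells, and their genes are switched on through a conserved promoter module that includes the Y box, an inverted CCAAT element.

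The promoters of Saa3, which defines the cells, and of H2-Aa and H2-Eb1, which had the lowest differences, are shown because they carry these textbook elements. The 150 bases before each RefSeq start (GRCm38.p6) are written 5′ to 3′ on the gene's strand, with the match in capitals. Saa3 (chr7:46715677-46715826, minus strand) held 1 match to the C/EBP half-palindrome TTGCNNAA, on the opposite strand, 99 to 92 bases before the start. H2-Aa (chr17:34287824-34287973, minus strand) and H2-Eb1 (chr17:34305717-34305866, plus strand) held the Y box CTGATTGG at 51 to 44 and 62 to 55 bases before the start.
Saa3: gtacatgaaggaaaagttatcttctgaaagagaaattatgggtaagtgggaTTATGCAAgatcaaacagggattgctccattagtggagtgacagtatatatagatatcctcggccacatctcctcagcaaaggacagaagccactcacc
H2-Aa: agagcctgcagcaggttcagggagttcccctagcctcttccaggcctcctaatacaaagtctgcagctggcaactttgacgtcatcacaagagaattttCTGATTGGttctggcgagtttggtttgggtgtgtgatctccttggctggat
H2-Eb1: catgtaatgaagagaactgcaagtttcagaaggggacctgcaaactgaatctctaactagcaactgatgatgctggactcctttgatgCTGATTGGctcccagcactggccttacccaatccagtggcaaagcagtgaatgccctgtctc
In windows of 250 bases searched on both strands, the Y box was present in 3.83% and the C/EBP letters in 9.56% of 32851 mouse promoters. A looser NF-kB pattern, GGGNNNNNCC, was present in 45.8% of them and was absent from the Saa3 promoter. Among the 12 genes with the highest differences in Saa3-listed cells, described below, 9 had 10 promoters in the RefSeq table, of which 2 held the C/EBP letters (Slpi and Mgst1), 4 the NF-kB pattern and 0 the Y box. Among the 12 genes at the other end, 8 had 12 promoters, of which 2 held the Y box, 7 the NF-kB pattern and 0 the C/EBP letters. A match of letters is a description and shows no binding.

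Saa3 itself, used only to choose the cells, ran from an RPKM of 1.76 to 50211 with a median of 2305. The cut fell in a sparse range: 5 cells lay between 1 and 10 (1.76, 2.81, 6.74, 9.49 and 9.88), the next lay at 12.98, and all cells outside the class lay at 0. At baseline, 6 of 125 cells listed Saa3. Saa3 shares parts of its sequence with Saa1 and Saa2, and the labels and files do not say how reads that match several genes were assigned.

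Regression libraries fall into 3 stretches of consecutive sample numbers, and what a stretch was is not stated. Saa3-listed cells were found in all 3 stretches: they made up 8 of 20 cells numbered 1 to 20 (40.0%, exact 95% interval 19.1 to 63.9%), 5 of 18 cells numbered 93 to 111 (27.8%, interval 9.69 to 53.5%) and 43 of 75 cells numbered 168 to 244 (57.3%, interval 45.4 to 68.7%). The intervals overlap. Saa3-listed cells listed 1142 to 4107 genes, with a median of 2322.5, and the other cells 1244 to 4119 with a median of 2386. Within stretches the medians were 2602 in Saa3-listed and 2669 in other cells for numbers 1 to 20, 1911 in Saa3-listed and 1866 in other cells for 93 to 111, and 2339 in Saa3-listed and 2543.5 in other cells for 168 to 244. Genes detected therefore lay close together in both classes. Mitochondrial genes held a median of 8.71% of summed RPKM in Saa3-listed cells and 7.58% in the other cells, and ribosomal protein genes 12.6% in Saa3-listed cells and 11.9% in the others. Read depth, in mega-reads (M), was inferred from the spacing of low values. It was obtained for 32 cells of each class, with a median of 0.950 M in Saa3-listed cells (0.447 to 6.59 M) and 0.989 M in the other cells (0.480 to 2.93 M). In the median library 57.3% of the low values of Saa3-listed cells, and 55.6% in the other cells, lay within 0.1 reads of a whole number.

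**Figure D1:**
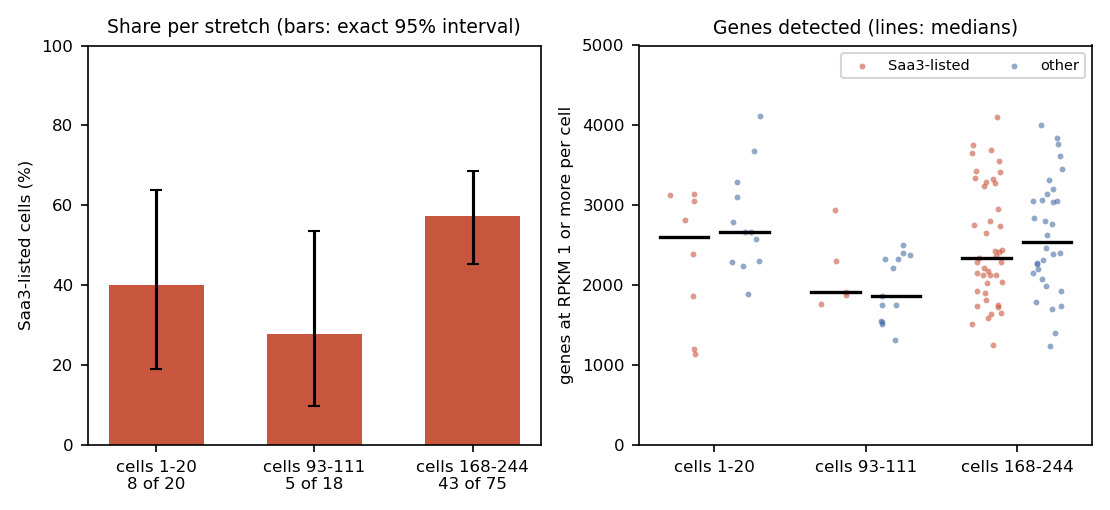
Left, share of regression cells that list Saa3 in each stretch of sample numbers (%), with exact 95% intervals; right, genes at an RPKM of 1 or more per cell, by class and stretch, each point 1 cell and each line a median. Shares were 40.0%, 27.8% and 57.3%, and the ranges of genes detected overlap in every stretch.

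Levels were compared as log2(RPKM + 1), and a difference is the mean over the 56 Saa3-listed cells minus the mean over the 57 others; this scale understates differences of low genes. Among 4015 genes that reached an RPKM of 1 in 25% or more of either class, 164 (4.08%) had a difference of 1 or more and 230 (5.73%) a difference of -1 or less. The median over all 4015 genes was -0.05. By the log2 ratio of mean RPKM, which weights the highest cells, the same counts were 581 higher and 481 lower, and with stretch and genes detected as terms they were 217 and 188, so which side holds more genes depends on the measure. The sign was the same in all 3 stretches for 118 of the 164 higher genes (72.0%) and 173 of the 230 lower genes (75.2%), against 1226 of all 4015 (30.5%); the stretches are parts of the same cells that chose the genes, so these shares describe and do not test.

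The genes with the highest means relative to the other cells were led by Ltc4s, which makes leukotriene C4, and the secreted WAP-domain proteins Slpi and Wfdc17, and included Arg1, which splits arginine into ornithine and urea. Ltc4s (gene 17001, chromosome 11, 50236461 to 50238616, mm10) ranged in log2(RPKM + 1) from 0.00 through a median of 7.98 to 12.29 in Saa3-listed cells, and from 0.00 through a median of 0.00 to 11.77 in the others. Its mean was 6.43 ± 4.11 (SD, 56 cells) in Saa3-listed cells and 3.13 ± 4.21 (SD, 57 cells) in the others, a difference of 3.30. The transcript was listed in 44 of 56 Saa3-listed cells (78.6%, interval 65.6 to 88.4%) and 25 of 57 others (43.9%, interval 30.7 to 57.6%). The ranges overlap almost whole, and fewer of the other cells lay off the floor.

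Slpi, the secretory leukocyte protease inhibitor that blocks neutrophil elastase and dampens NF-kB signalling (gene 20568, chromosome 2, 164354070 to 164389095), had a lowest, median and highest level of 0.00, 2.91 and 14.15 in Saa3-listed cells, against 0.00, 0.00 and 11.60 in the others. Its means were 4.59 ± 4.94 in Saa3-listed cells and 1.62 ± 3.15 in the others, a difference of 2.97, and it was listed in 30 Saa3-listed cells (53.6%) and 14 others (24.6%). Slpi was below an RPKM of 1 in 26 of the 56 cells of the class, and the ranges overlap. Wfdc17, a macrophage protein with the same WAP-type domain (gene 100034251), was near universal: it was listed in 56 of 56 Saa3-listed and 50 of 57 other cells, with a median level of 12.09 in Saa3-listed cells and 9.80 in the others, and a difference of 2.95. Near copies of Wfdc17 exist in the mouse genome, so its reads may be shared.

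Arg1 (gene 11846, chromosome 10, 24915221 to 24927484) ranged from 0.00 through a median of 10.44 to 13.04 in Saa3-listed cells and from 0.00 through 7.67 to 13.06 in the others. Its means were 9.01 ± 3.93 in Saa3-listed cells, 6.31 ± 4.30 in the others and 0.09 at baseline; the difference between the regression classes was 2.71. Arg1 was listed in 49 of 56 Saa3-listed cells (87.5%), 45 of 57 others (78.9%) and 3 of 125 baseline cells, so it was common in regression cells with and without Saa3. Its difference was 4.16 in cells 1 to 20, 3.75 in cells 93 to 111 and 1.37 in cells 168 to 244. Fn1, the gene of the matrix glycoprotein fibronectin, likewise was listed in nearly all regression cells (55 of 56 Saa3-listed and 52 of 57 other cells), with means of 9.11 ± 2.05 in Saa3-listed cells and 6.84 ± 3.47 in the others.

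Ifitm6, of the interferon-induced transmembrane family, whose members resemble each other, differed by 2.78 and was listed in 33 Saa3-listed cells (58.9%) and 16 others (28.1%). Smpdl3a, a secreted phosphodiesterase related to acid sphingomyelinase, differed by 2.73 (50 Saa3-listed and 32 other cells). Mgst1, a microsomal glutathione transferase, differed by 2.46 (39 Saa3-listed and 17 other cells), although by only 0.40 within cells 1 to 20. F10, the gene of coagulation factor X, differed by 2.40 (39 Saa3-listed and 19 other cells), and the matrix protein gene Ecm1 by 2.29 (49 Saa3-listed and 38 other cells). Padi4, an enzyme that turns arginine residues of histones into citrulline, differed by 2.28 (31 Saa3-listed and 11 other cells). Ms4a8a, a membrane protein with 4 predicted passes, differed by 2.20 (25 Saa3-listed and 11 other cells). Of these genes, F10, Mgst1 and Padi4 were also rare at baseline, in 10, 17 and 3 of 125 cells.

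**Figure D2:**
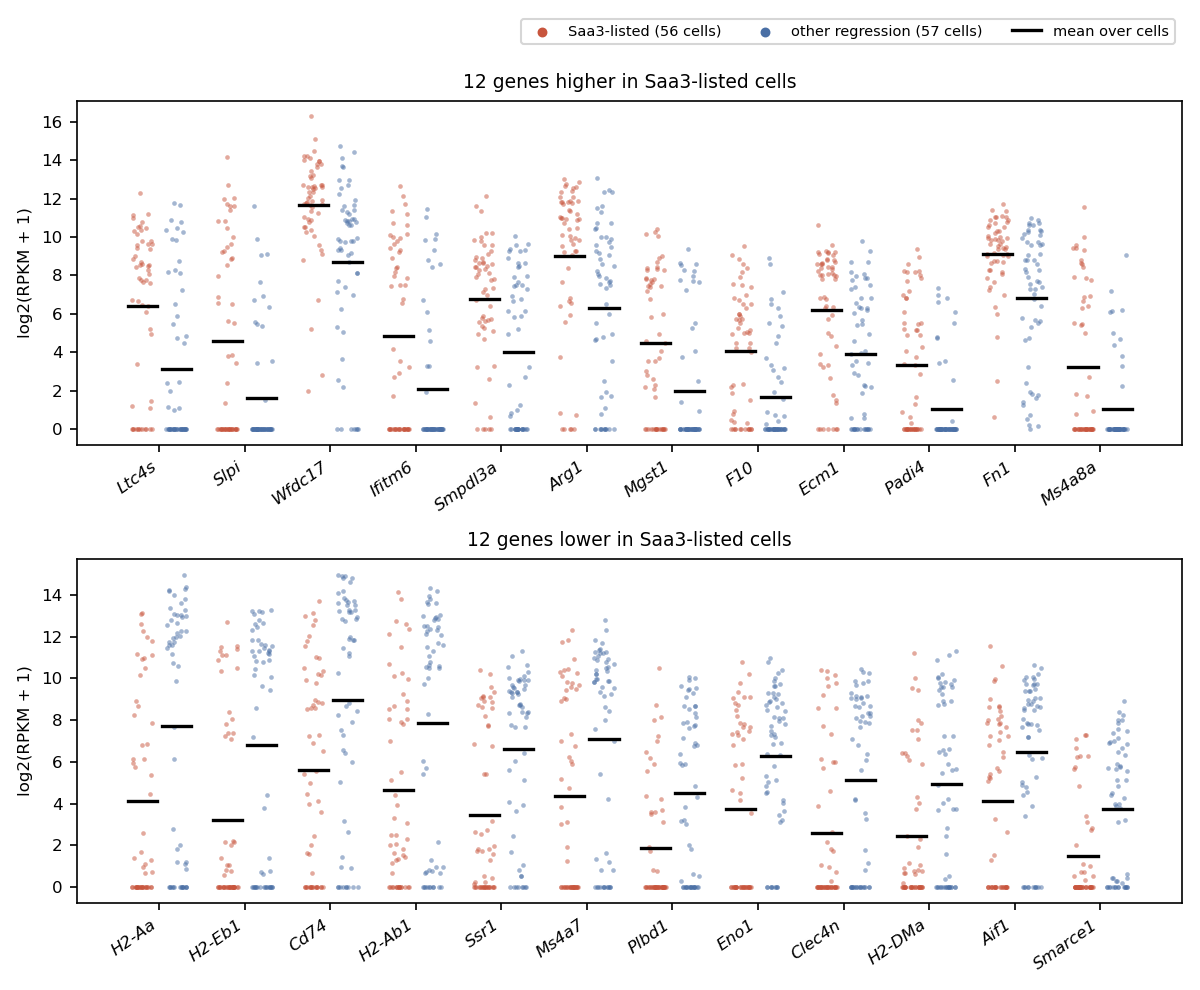
Levels of 12 genes from each end of the comparison, higher ones above and lower ones below, as log2(RPKM + 1); each point is 1 cell, shifted sideways at random for visibility, and each black line is the mean over cells. Ranges of the classes overlap for all 24 genes, and many cells of both classes lie at 0 for genes such as Slpi and H2-Eb1.

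The genes with the lowest means relative to the other cells were led by MHC class II. H2-Aa, the alpha chain of the I-A molecule (gene 14960, chromosome 17, 34282744 to 34287823), had a lowest, median and highest level of 0.00, 1.20 and 13.12 in Saa3-listed cells and 0.00, 11.48 and 14.98 in the others. Its means were 4.13 ± 4.81 in Saa3-listed cells, 7.74 ± 5.98 in the other regression cells and 9.56 at baseline, and the difference between the regression classes was -3.61. It was listed in 29 of 56 Saa3-listed cells (51.8%, interval 38.0 to 65.3%), 41 of 57 others (71.9%, interval 58.5 to 83.0%) and 111 of 125 baseline cells. Cells of both classes spread over nearly the whole scale, and their ranges overlap.

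H2-Eb1, the beta chain of I-E (gene 14969, chromosome 17, 34305867 to 34316674), had means of 3.21 ± 4.52 in Saa3-listed cells and 6.80 ± 5.58 in the others, a difference of -3.58, with medians of 0.00 in Saa3-listed cells and 10.09 in the others. Cd74, the invariant chain that guards the class II groove (gene 16149, chromosome 18), differed by -3.40, with a median of 5.50 in Saa3-listed cells and 11.48 in the others. H2-Ab1, the beta chain of I-A, differed by -3.21 while nearly the same share of cells listed it: 39 of 56 Saa3-listed cells (69.6%) and 40 of 57 others (70.2%). The medians of H2-Ab1 were 2.50 in Saa3-listed cells and 10.62 in the others, so for this gene the classes stood apart in level at a nearly equal share of listing cells. H2-DMa, a chain of the peptide exchanger of class II, differed by -2.50 over all cells and by -0.47 in cells 93 to 111.

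Outside class II, Ssr1, a subunit of the translocon-associated complex of the endoplasmic reticulum, had the lowest difference at -3.20 (31 of 56 Saa3-listed and 46 of 57 other cells). Ms4a7, a macrophage relative of Ms4a8a, differed by -2.73 (31 Saa3-listed and 43 other cells), so members of this family stood at both ends. Plbd1, a lysosomal phospholipase B-like protein, differed by -2.62 (19 Saa3-listed and 36 other cells), and Clec4n, which encodes the fungal receptor dectin-2, by -2.53 (22 Saa3-listed and 38 other cells). The glycolytic enzyme gene Eno1 differed by -2.54 (28 Saa3-listed and 48 other cells); it has processed copies in the genome that may share its reads. Aif1, the gene of the macrophage protein Iba1, differed by -2.35 (33 Saa3-listed and 46 other cells), and Smarce1, a subunit of the SWI/SNF chromatin remodeller, by -2.28 (17 Saa3-listed and 35 other cells). For 0 of these 24 genes did the difference exceed the SD over cells in both classes.

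**Figure D3:**
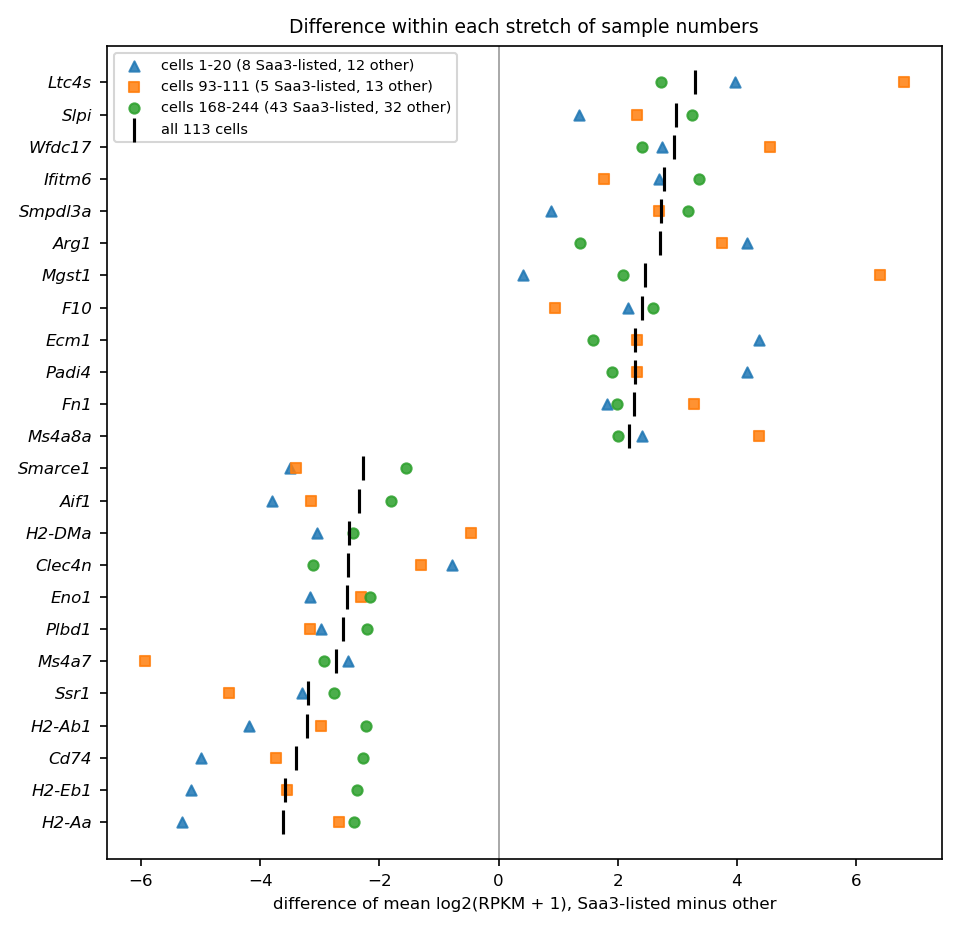
Difference in mean log2(RPKM + 1), Saa3-listed minus other regression cells, for the same 24 genes within each stretch of sample numbers (coloured symbols) and over all 113 cells (black bars). All symbols of a gene lie on 1 side of 0, which the naming rule required; sizes vary, as for Mgst1 between 0.40 and 6.41.

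Counted cell by cell, Saa3-listed cells listed a median of 10 of the 12 higher genes (range 2 to 12), and the others a median of 5 (range 1 to 12). At least 9 of the 12 were listed in 39 Saa3-listed cells and 10 others. Of the 12 lower genes, Saa3-listed cells listed a median of 6 (range 1 to 11) and the others 9 (range 2 to 12). These genes were picked for their size on the same cells, so the counts show how the pattern is spread over cells: the classes are shifted along a shared range, with no clean gap between them.

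The members of 25 gene lists were then counted, over genes that reached an RPKM of 1 in 5% or more of either class. At this filter 1.77% of 9433 genes had a difference of 1 or more and 2.51% a difference of -1 or less, with a median of -0.03. Nearly all of these genes (167 and 237) also passed 1 at the 25% filter (164 and 230). There the shares were 4.08% and 5.73% of 4015 genes, which is the closer measure for list members that pass both filters. The acute-phase and alarmin list, to which Saa3 belongs by function and from which it was left out, had 13 measured members of 25, with 6 at 1 or more, 0 at -1 or less and a median of 0.60. Besides Slpi and Wfdc17, these were the genes of haptoglobin (Hp, 2.17), the S100 family members S100a4 (2.12) and S100a10 (1.36), and Wfdc21 (1.40). Hp, which binds free haemoglobin, was listed in 31 of 56 Saa3-listed and 21 of 57 other cells, but its difference was -3.17 in cells 1 to 20, -0.15 in cells 93 to 111 and 3.63 in cells 168 to 244, so its direction rests on the last stretch. Wfdc21 was listed in only 11 Saa3-listed and 3 other cells. Lcn2, the iron-scavenging lipocalin often induced with serum amyloid A, was listed in 0 of 56 Saa3-listed and 0 of 57 other cells, which allows shares of up to 5.36% of Saa3-listed and 5.26% of other cells (the share that 3 cells would make). The neutrophil alarmins S100a8 and S100a9 differed by 0.52 and -0.16.

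Receptors reported for serum amyloid A had 3 of 9 members at 1 or more, 0 at -1 or less and a median of 0.66. They were Fpr1, a formyl peptide receptor of phagocytes (1.29, listed in 18 Saa3-listed cells and 9 others), Tlr4, the lipopolysaccharide receptor (1.28, in 21 Saa3-listed and 8 other cells), and the scavenger receptor Cd36 (1.16, in 32 Saa3-listed and 27 other cells). The list's median was -0.46 within cells 1 to 20, 1.08 within cells 93 to 111 and 0.20 within cells 168 to 244. The formyl peptide receptor Fpr2 differed by 0.66 and Tlr2 by -0.25. A list of cytokine receptors, adaptors and kinases upstream of serum amyloid A (such as Tnfrsf1b, Irak3 and Ly96) had 0 of 15 members past 1 in either direction, with a median of -0.14; Ly96, the partner of Tlr4, differed by 0.56 and the tumour necrosis factor receptor gene Tnfrsf1b by -0.45.

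Among 21 transcription factors and regulators of the NF-kB, C/EBP and STAT3 pathways, 3 had a difference of 1 or more and 1 of -1 or less, with a median of -0.06. Cebpb, which encodes a transcription factor of the C/EBP family, was listed in 56 of 56 Saa3-listed and 56 of 57 other cells, with means of 7.32 ± 1.46 in Saa3-listed cells, 6.16 ± 1.67 in the others and 4.74 at baseline. Its difference of 1.16 was 1.22, 1.30 and 0.93 in the 3 stretches. Nfkbia, the NF-kB inhibitor that NF-kB itself induces, differed by 1.56, mostly within cells 168 to 244 (2.09, against 0.56 and 0.27). Socs3, the feedback inhibitor of STAT3, differed by 1.04, and the AP-1 gene Fosl2 by -1.18.

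The list of MHC class II and antigen presentation genes, which also holds the costimulatory Cd86, Cd80 and Cd40 and the protease gene Ctss, had 5 of 11 members at -1 or less, 0 at 1 or more and a median of -0.89. The 5 were the class II genes named above; Cd86 differed by -0.89, Cd80 by -0.34, Ctss by -0.13 and Cd40 by 0.67. Among the 9 members listed in at least 25% of cells the median was -2.50. Ciita, which encodes the coactivator that switches class II genes on, was sparse, in 2 of 56 Saa3-listed and 6 of 57 other cells, with a difference of -0.40, and H2-DMb1 differed by -0.76. C-type lectins had 4 of 13 members at -1 or less and 2 at 1 or more. Clec4n, Clec4a1 (-1.59), Mgl2 (-1.17) and Clec4a3 (-1.08) lay at the lower side, while Clec4d (1.70, listed in 48 Saa3-listed and 45 other cells) and Clec4e (1.53, in 40 Saa3-listed and 32 other cells), receptors that signal on mycobacterial glycolipids and dead cells, lay at the higher. The genes of Clec4n, Clec4d and their relatives lie in a cluster on chromosome 6, so neighbours of this cluster went opposite ways.

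The list of inflammatory mediators, mainly cytokines and chemokines, had 3 of 25 members at 1 or more (Ccl6, Ccl24 and the lectin Clec4e), 3 at -1 or less and a median of 0.08. Il1rn, the decoy ligand that blocks interleukin 1, differed by -2.23 and was listed in 5 of 56 Saa3-listed cells (8.93%, interval 2.96 to 19.6%) and 23 of 57 others (40.4%, interval 27.6 to 54.2%). Il1b itself differed by -1.58 (39 Saa3-listed and 42 other cells), and the monocyte attractant Ccl12 by -1.24. The chemokine Ccl6 was listed in all 113 cells and differed by 1.64, with medians of 12.21 in Saa3-listed cells and 10.63 in the others; the eosinophil attractant Ccl24 differed by 1.38 (20 Saa3-listed and 11 other cells). Il1a, sparse at 8 Saa3-listed and 5 other cells, differed by 0.12.

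In the alternative activation list, 2 of 11 members had a difference of 1 or more (Arg1 and Ccl24) and 1 of -1 or less (the lectin Mgl2, -1.17), with a median of 0.25; the chitinase-like Chil3 differed by 0.63 and Retnla, a resistin-like secreted protein, by 0.42 (4 Saa3-listed and 2 other cells). In the arginine and polyamine list, Arg1 was the 1 of 12 members at 1 or more, none lay at -1 or less, the median was -0.17, and the spermidine-acetylating Sat1 differed by -0.67. Matrix glycoproteins had 4 of 14 members at 1 or more (Ecm1, Fn1, Emilin2 at 1.93 and Prg4 at 1.05) and 0 at -1 or less, with a median of 0.28 (-0.20 within cells 1 to 20); Thbs1, the gene of thrombospondin 1, differed by 0.97. Proteases and inhibitors had 1 of 17 past 1, which was Slpi; the sheddase Adam17 differed by 1.00.

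The lipid lists held members that went both ways. The lipid-laden macrophage list had 2 of 16 members at 1 or more, 1 at -1 or less and a median of -0.07: the tetraspanin Cd9 differed by 2.02 and its relative Cd63 by -1.22, while Spp1 (0.26) and Trem2 (-0.18), genes of lipid-associated macrophages, had pooled differences near 0 with stretches that went opposite ways: -0.19, 2.26 and -1.27 for Spp1, and -1.71, 1.44 and -0.40 for Trem2. Cd9 was uneven, with differences of 4.54 and 3.81 in the first stretches and 0.27 in cells 168 to 244. Cholesterol efflux genes had 1 of 16 in each direction (Pltp at 1.05, Soat1 at -1.04) and a median of -0.16. Pltp overlaps Ctsa (-1.23) on chromosome 2, and whether strand was used in counting is not stated; its log2 ratio of mean RPKM was -0.25, the opposite sign. The exporter Abca1 differed by -0.02 and Abcg1 by -0.94. Cholesterol synthesis genes had 0 of 12 past 1; all 12 lay below 0, between -0.75 (Insig1) and -0.11, and 3 of them were listed in 25% of cells.

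The hypoxia and glycolysis list went both ways, with 2 of 20 members at 1 or more, 2 at -1 or less and a median of 0.14. Hilpda, a hypoxia-induced inhibitor of lipid droplet breakdown, had a median of 6.94 in Saa3-listed cells and 0.00 in the others and a difference of 2.12, and the phosphofructokinase gene Pfkl differed by 1.25. Against these stood Eno1 and the pyruvate kinase gene Pkm (-1.31). Oxidative phosphorylation had 0 of 18 at 1 or more and 3 at -1 or less, with a median of -0.32; Sdhb, a subunit of succinate dehydrogenase, differed by -2.20 and the complex I subunit gene Ndufb8 by -1.63. The 16 mitochondrially encoded genes had a median of 0.42 and 76 ribosomal protein genes a median of -0.04.

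Among surface receptors of phagocytes, 4 of 23 members had a difference of 1 or more and 2 of -1 or less, with a median of -0.01. On the higher side, Itgb2, which pairs with CD11b, differed by 1.54 (56 of 56 Saa3-listed and 48 of 57 other cells) and Itgam, the gene of the sorted antigen CD11b, by 1.51. Within stretches Itgb2 differed by -0.69, 4.87 and 1.27, and Itgam by 0.56, 1.81 and 1.68. The glycoprotein gene Cd68 differed by -2.11 (45 Saa3-listed and 54 other cells). Of the other sorted antigens, Adgre1 (F4/80) differed by -0.50 and Ptprc (CD45) by -0.41. The list of monocyte trafficking receptors had 14 measured members and a median of -0.02; the chemokine receptor gene Cxcr4 differed by -1.45 and the monocyte receptor gene Ccr2 by -0.83. Iron and oxidative stress genes held Ncf1, a subunit of the phagocyte oxidase, at 1.56 and the peroxiredoxin gene Prdx1 at -1.67, with 2 of 18 members at 1 or more and 1 at -1 or less, the second higher member being the oxidase subunit gene Cybb (1.13).

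The remaining lists had few members past 1. Endoplasmic reticulum stress genes had a median of -0.46 with 1 of 13 at -1 or less (Herpud1, -1.01). Lysosome genes had 0 of 21 at 1 or more and 2 at -1 or less, led by the protective protein gene Ctsa. Interferon response genes had 0 of 15 at 1 or more and 1 at -1 or less (Bst2, -1.08). Genes that tissue dissociation can induce had 1 of 16 at 1 or more (Dusp1, 1.06) and 2 at -1 or less (Btg2 at -1.51, Fosb at -1.24). Proliferation genes had 0 of 17 and growth factors 0 of 9 past 1 in either direction.

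**Figure D4:**
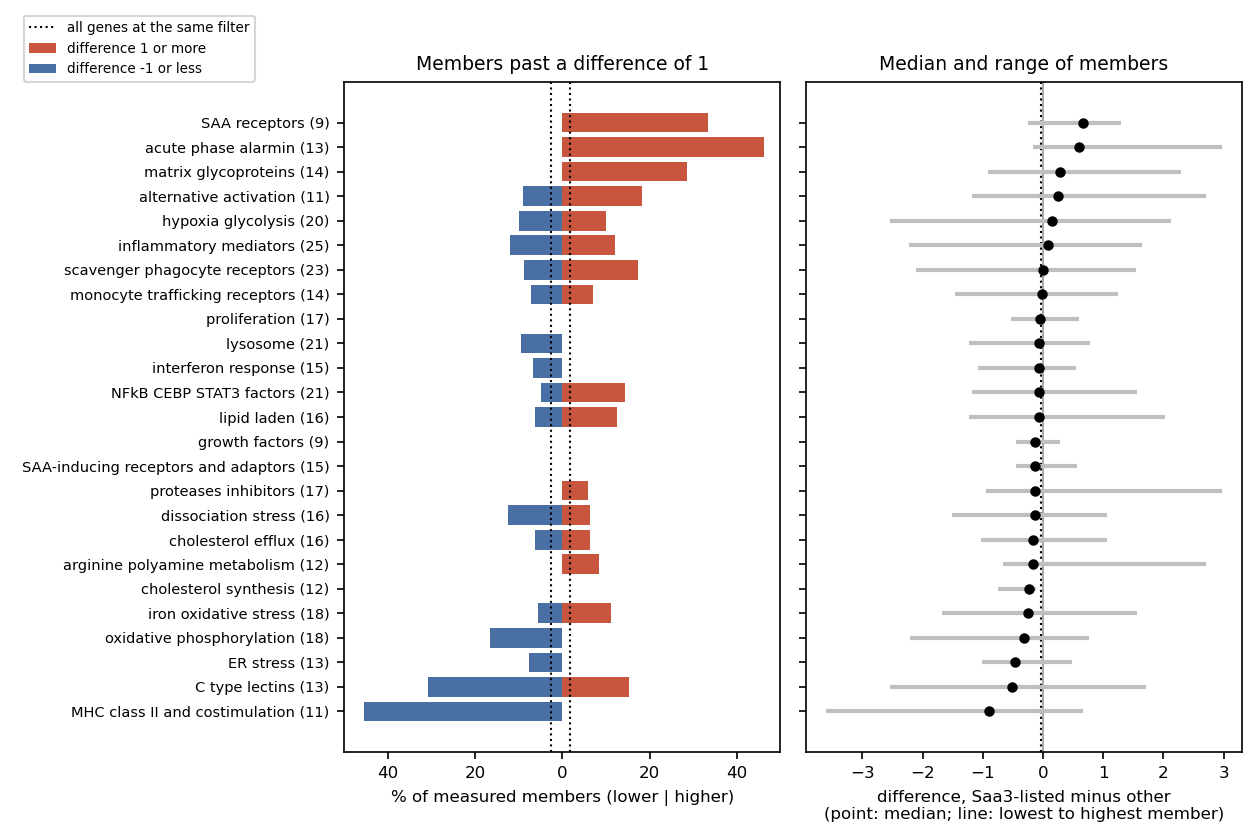
Left, share of the measured members of each list with a difference of 1 or more (red, right) or -1 or less (blue, left), in % of members, with the share over all 9433 genes dotted; right, the median (point) and the lowest and highest member (line) of each list, as the difference of mean log2(RPKM + 1). Numbers of measured members stand in parentheses; the acute-phase list leads upward with 6 of 13 members and the list of MHC class II and costimulatory genes downward with 5 of 11.

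Saa3-listed cells varied among themselves in how Slpi and H2-Aa were combined, a pair singled out after its values were seen. H2-Aa was listed in 9 of the 30 Saa3-listed cells that list Slpi (30.0%) and in 20 of the 26 that do not (76.9%). In the other regression cells, H2-Aa was listed in 10 of 14 cells with Slpi (71.4%) and 31 of 43 without it (72.1%). Within Saa3-listed cells of stretch 168 to 244, the shares were 8 of 24 with Slpi (33.3%) and 13 of 19 without it (68.4%); in cells 1 to 20 they were 0 of 5 with and 3 of 3 without. Cells 93 to 111 showed no gap, with 1 of 1 cell with Slpi and 4 of 4 without it. The gap was narrower for the other class II genes in Saa3-listed cells: Cd74 was listed in 56.7% of cells with Slpi and 80.8% of cells without it, H2-Ab1 in 63.3% with and 76.9% without, and H2-Eb1 in 36.7% with and 50.0% without. Within Saa3-listed cells 168 to 244 H2-Eb1 had nearly the same share in both, 41.7% with and 42.1% without. A gap for Cd74 was also present in the other regression cells, at 64.3% with Slpi and 86.0% without. There H2-Ab1 was listed in 64.3% with and 72.1% without, and H2-Eb1 in 57.1% with and 65.1% without. Other leading genes went both ways in the class. H2-Aa was listed in 46.9% of cells with Ecm1 and 85.7% of the 7 cells without it. The shares were 43.6% with F10 and 70.6% without, and 49.0% with Arg1 and 71.4% of the 7 cells without. They ran the other way for Smpdl3a (54.0% with, 33.3% of 6 cells without) and Mgst1 (53.8% with, 47.1% without). Gaps were also present outside the class: other regression cells listed H2-Aa in 66.7% with Arg1 and 91.7% without. With Mgst1 the share there was 41.2%, and without it 85.0%. For Ltc4s the shares were 23 of 44 with it (52.3%) and 6 of 12 without it (50.0%). Slpi-listed cells within the class listed a median of 2296.5 genes, and those without Slpi 2597.

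**Figure D5:**
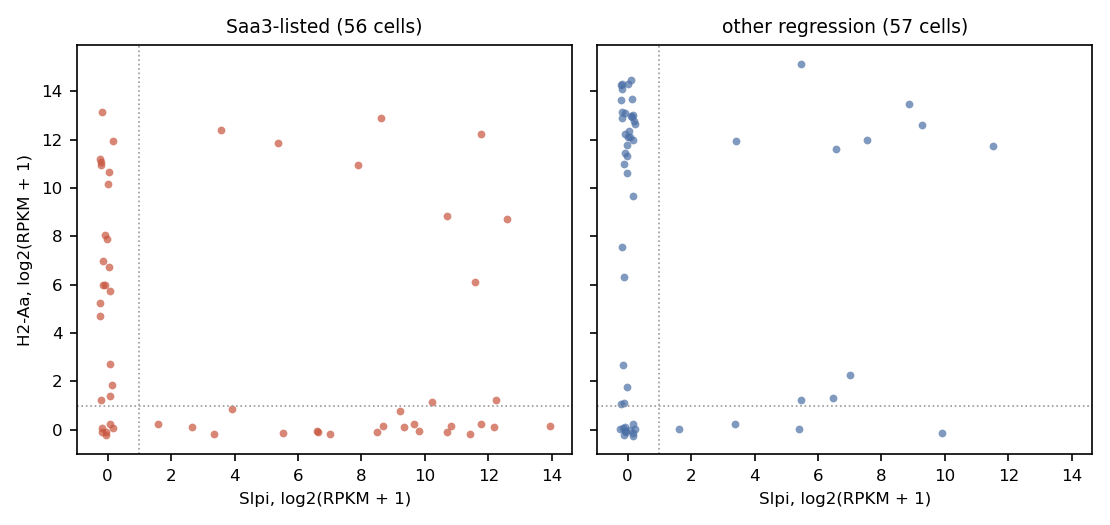
H2-Aa against Slpi in each cell, both as log2(RPKM + 1), for Saa3-listed cells (left) and other regression cells (right); points are shifted at random by up to 0.25 and dotted lines mark an RPKM of 1. In Saa3-listed cells 9 list both genes, 21 Slpi without H2-Aa, 20 H2-Aa without Slpi and 6 neither.

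Markers of other cell types the gate could hold were counted in the same cells. Classical monocyte markers were listed, at least 3 of 8, in 41 of 56 Saa3-listed cells (73.2%, interval 59.7 to 84.2%) and 34 of 57 others (59.6%, interval 45.8 to 72.4%); the list's summed RPKM ranged from 13.3 to 4041 in Saa3-listed cells and from 24.3 to 17802 in the others. Hp, counted above, is among these markers, whereas Ly6c2, which defines classical monocytes and has a near copy in Ly6c1, was listed in only 3 Saa3-listed and 4 other cells. At least 3 of 8 nonclassical monocyte markers were found in 4 Saa3-listed and 7 other cells, and at least 2 in 16 and 25. For resident macrophages, at least 3 of 10 markers were found in 42 Saa3-listed and 39 other cells. F13a1 (47 and 45 cells), which is also in the classical monocyte list, Pf4 (50 and 44) and Mrc1 (38 and 44) were listed most often. The rest were sparser, such as Folr2 (22 and 12), Lyve1 (7 and 4) and Igf1 (7 and 10), and Timd4 was listed in 0 cells. At least 3 of 14 neutrophil markers were listed in 13 Saa3-listed cells (23.2%) and 9 others (15.8%). At least 2 were listed in 22 Saa3-listed cells (39.3%) and 26 others (45.6%), so the direction depends on the cut. Summed RPKM of these markers ran from 0 to 14814 in Saa3-listed cells and from 0 to 29897 in the others. Of that list, Csf3r was listed in 28 Saa3-listed and 25 other cells, Cxcr2 in 22 and 25, S100a8 in 15 and 12, and S100a9 in 9 and 10. The granule and surface genes Ly6g, Mpo, Elane, Ngp, Camp, Ltf and Retnlg were listed in 0 cells. At least 3 of 7 markers of large peritoneal macrophages were found in 4 Saa3-listed cells and 1 other cell, and at least 2 in 11 of 56 Saa3-listed cells (19.6%, interval 10.2 to 32.4%) and 2 of 57 others (3.51%, interval 0.43 to 12.1%). Of that list, Icam2 differed by 1.62 (17 Saa3-listed and 6 other cells), Prg4 by 1.05 (14 Saa3-listed and 5 other cells) and Cd5l by 0.80 (8 Saa3-listed and 2 other cells). Gata6 was listed in only 2 Saa3-listed and 0 other cells, Alox15 in 1 and 0, and Timd4 and Garnl3 in 0 cells. The list's summed RPKM ran from 0 to 2565 in Saa3-listed cells and from 0 to 1170 in the others. At least 3 markers of eosinophils, basophils or mast cells, dendritic cells, T cells, NK cells, B cells, endothelium, smooth muscle, fibroblasts, mesothelium or fat, or red cells and platelets were listed in 0 cells of either class, which allows up to 5.36% of Saa3-listed and 5.26% of other cells for each type. The part of the monocyte, neutrophil and peritoneal macrophage markers in the differences above was not tested.

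Apoe, the gene tied to the graft design by genotype, and Cd81 had means that lay close together in both classes when taken over all cells. Apoe, absent from donors by genotype, was listed in 55 of 56 Saa3-listed cells, 57 of 57 other regression cells and 9 of 125 baseline cells, with means of 11.66 ± 3.07 in Saa3-listed cells, 12.07 ± 2.54 in the others and 0.30 at baseline. Its difference between the regression classes was -0.41 over all cells, and -2.41, -3.08 and 0.14 in the 3 stretches. The tetraspanin gene Cd81, high at baseline with a mean of 7.56, was low in regression, at 1.81 in Saa3-listed cells and 1.85 in the others. Within the 3 stretches Cd81 differed by -1.26, -1.14 and 0.39.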

How the data were processed

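Single cells were captured on a microfluidic chip and amplified with a SMARTer kit without molecular identifiers, per the labels' protocols. The authors deposited 1 table of RPKM values for 24475 genes. Per the submitters' processing notes, CASAVA 1.8.2, FastQC and the mm10 build were used, without a stated role. Aligner, annotation and strand setting: not given in the sources used here. Columns were matched to samples by the number in the title.

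Members and gene lists were chosen with earlier results of these data known. Named genes were the 12 highest and 12 lowest differences with the same sign in the ratio of mean RPKM and in all 3 stretches, without predicted genes, immunoglobulin and T-cell receptor segments and Y-linked genes; the 2 list members with the largest absolute difference; and 24 fixed genes. Other list members were picked as examples once values were known. The pseudocount was 1. Saa3 was left out of all comparisons. There were 25 lists of programmes and 16 of cell types, with 525 symbols, 523 of them in the table; some share genes. Exact (Clopper-Pearson) 95% intervals, and the share that 3 cells would make for a count of 0, cover counting error only. RPKM values are not counts and each class counts as 1 sample, so no count model and no test was run. Doublets were not called. Gene positions came from GENCODE vM21 and promoters from RefSeq GRCm38.p6. The difference, alone and with stretch as a term, was tested on values shuffled among the cells with known changes put in. Python 3.11.15, pandas 2.3.3, NumPy 2.4.6, SciPy 1.17.1 and matplotlib 3.10.9 were used. Alternatives changed the pseudocount, the filter, the Saa3 and gene cuts, the scaling and the stretches used.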

Additional observations from a re-analysis of the deposited data

How the results depend on the processing

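Against 164 genes at 1 or more and 230 at -1 or less, a pseudocount of 0.1 gave 449 and 561, a pseudocount of 10 gave 42 and 54, and the log2 ratio of mean RPKM gave 581 and 481. Cells with at least 2000 genes gave 271 higher and 258 lower genes. Without cells 1 to 20 there were 277 higher and 233 lower, without cells 93 to 111 there were 127 and 371, and without cells 168 to 244 there were 639 and 700; cells 168 to 244 alone gave 218 and 387. The fit with stretch as a term gave 170 higher and 276 lower genes, and with stretch and genes detected 217 and 188, so the balance between directions rests on the setting. Fewer cells remain in each of the settings that leave out cells; for the others the cause was not tested. Pltp changed sign by the ratio of means (-0.25 on the log2 scale) and without cells 168 to 244 (-0.13). The sign held in 15 of 15 settings for all 24 genes at the ends, in part because the naming rule required it, for 52 of 53 named genes past 1 and for 65 of 80 named genes. List medians ranged over these settings from 0.44 to 1.45 for acute-phase, 0.20 to 1.01 for serum amyloid A receptor and -1.72 to -0.49 for the list of MHC class II and costimulatory genes. No replicate numbers pair the classes, since both lie in the same group; stretch was the block that could be fitted. Depth limits the listing of low genes: with a median below 1 M reads per cell, a gene at 0 may be present below detection.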
